A study of Mus musculus with 6 samples.

Results

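CD157, encoded by Bst1, and CD200 are the surface proteins used to sort vascular endothelial stem cells (VESCs) from the liver. The genes described here are Bst1, Cd200, the CD200 receptor gene Cd200r1, the CD157 paralog gene Cd38 and Abcg2, which encodes an efflux pump used to define side population cells. They were chosen by symbol for these roles, and all 5 were found among the 24421 genes of the count table and the 24346 genes of the FPKM table. All 5 were also among the 14612 genes tested.

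RNA came from liver cells sorted by flow cytometry as CD31+CD45- endothelial cells (ECs) of wild-type C57BL/6J mice, which were female per the study's methods. The young group held 3 libraries from mice at 10 weeks of age, and the aged group held 3 libraries from mice at 127, 131 and 136 weeks. No cells were sorted on CD157 or CD200 for these libraries, so each value is an average over all ECs of the sort, and fewer cells carrying a transcript cannot be told apart from less transcript per cell. The comparison asked how the RNA of liver ECs differed with age.

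CD157 and CD38 are related ectoenzymes that consume NAD+ outside the cell, CD157 being held in the membrane by a lipid anchor and CD38 by a membrane-spanning segment. CD200 is an immunoglobulin family glycoprotein of ECs, neurons and lymphocytes that binds CD200R1, an inhibitory receptor found mainly on myeloid cells. ABCG2 exports many drugs and dyes, which leaves the cells that express it weakly stained. In the liver, CD157 marks ECs of large vessels such as the portal vein, while most liver ECs are sinusoidal.

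Total counts ran from 23001556 to 31651817 per library. The share of Lars2 and Rn45s counts, which are known to take up reads of ribosomal origin, was 1.29% in young 3 and 0.960% in the 127-week library and 4.68% to 5.53% in the other 4, so the libraries formed 2 clusters that each held both ages. The labelled EC identity was borne out by Pecam1 (CD31) at 1366 to 1635 CPM and by Cdh5 at 241 to 469 CPM in the 6 libraries. Ptprc, which encodes CD45 and should be absent after the sort, was at 1.17 to 1.70 CPM in the young libraries, 7.56 CPM at 127 weeks, 1.28 CPM at 131 weeks and 25.6 CPM at 136 weeks.

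Cd200 was the member with the clearest difference, with all 3 aged libraries above the young ones and a 2.04-fold higher mean CPM (reads counted per gene relative to the TMM-adjusted library total). Bst1 was low at both ages and high in the 136-week library alone, Cd38 was abundant and lower in 2 of the 3 aged libraries, and Cd200r1 and Abcg2 overlapped between the ages. A gene was called where its adjusted p was below 0.05 and its log2 fold change lay beyond 1. By edgeR's quasi-likelihood test, 0 of the 5 members were called, against 0% of all genes tested. At an unadjusted p below 0.05, 1847 genes passed (12.6%), among them Cd200. DESeq2 at the same limits called 474 genes (3.39% of those it tested), 395 of them higher in aged ECs (2.83%), and Cd200 was its 1 call among the members. The libraries of the ages did not overlap for Bst1 and Cd200, both higher in aged ECs, while 17.9% of all genes tested did not overlap and 9.62% had every aged library above every young one.

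**Figure D1:**
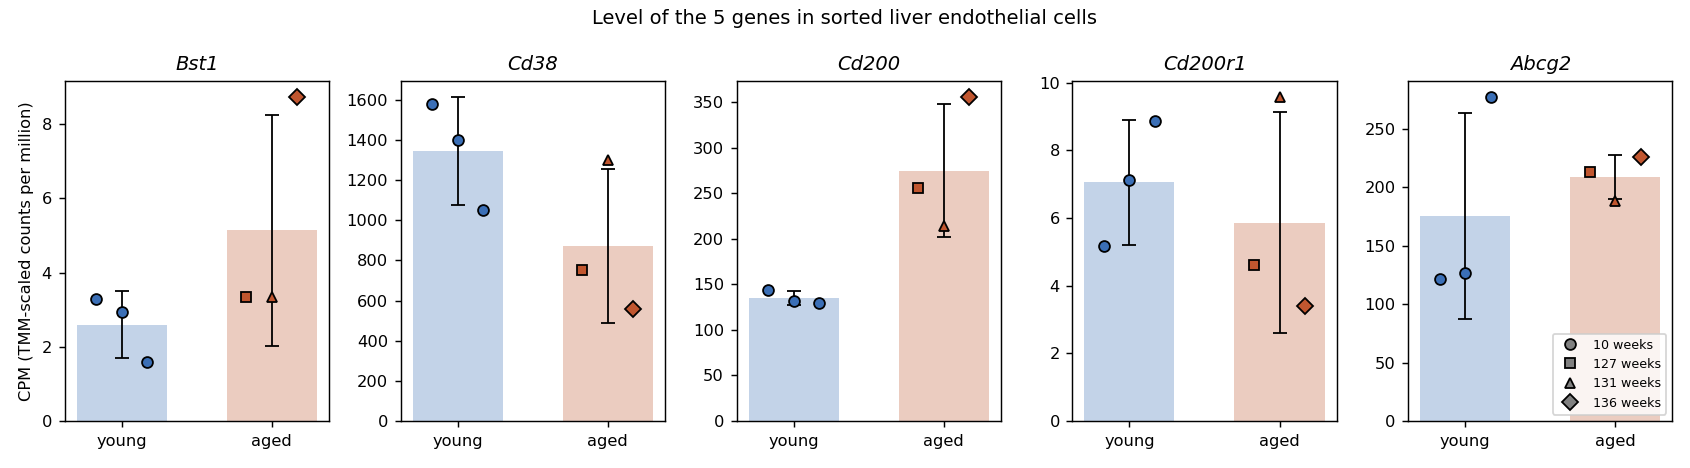
TMM-scaled CPM of the 5 genes (y axes, each from 0) in young and aged ECs, with 1 point per library shaped by age, bars for the mean of 3 libraries and error bars for the SD. Cd200 is separated by age, Bst1 is separated by a narrow margin apart from the 136-week library, and the other 3 genes overlap.

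Per length of transcript, Cd38 had the highest level of the members in all 6 libraries. In FPKM, which divides counts by transcript length and library depth, Cd38 was at 370–545 in young and 192–447 in aged ECs, Cd200 followed with 58.0–63.5 and 93.3–155, and Abcg2 lay at 50.5–117 and 78.2–93.5. The ranges of Cd200 and Abcg2 overlapped in young ECs and again, by a narrow margin, in aged ECs. Within a library, Cd200 was above Abcg2 in all but young 3. Cd200r1 at 2.90–5.14 FPKM lay above Bst1 at 0.702–1.48 FPKM in every young library, whereas in aged ECs the ranges, 1.95–5.44 and 1.46–3.88 FPKM, overlapped. Ranked by FPKM among all genes of a library, Cd38 was between 141st and 482nd, and Bst1 between 8859th and 11557th.

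Bst1 lies on chromosome 5 of the mm9 genome from 44210125 to 44234510 on the plus strand and has 9 exon blocks in the GENCODE annotation. Its counts were 88, 65 and 50 in young 1, 2 and 3, and 97, 86 and 215 at 127, 131 and 136 weeks. In CPM these were 3.27, 2.93 and 1.58 in young ECs and 3.34, 3.34 and 8.73 in aged ECs. All aged libraries were above all young ones, but young 1 and the 2 younger aged mice were nearly level, and 136 weeks alone stood well above. The exact (Clopper-Pearson) 95% interval from counting error was 2.63 to 4.03 CPM in young 1 and 2.70 to 4.07 CPM at 127 weeks, so the separation of these libraries was within counting error. At 136 weeks the interval was 7.60 to 9.98 CPM, which was apart from those of the other 5 libraries.

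The mean of Bst1 was 2.59 ± 0.898 CPM in young and 5.14 ± 3.11 CPM in aged ECs (SD, n = 3 each). The log2 fold change was 0.99 with a standard error of 0.50, and did not pass the test (edgeR adjusted p = 0.478). Without the 136-week library it was 0.37 with a standard error of 0.43. Among the 4 libraries rich in Lars2 and Rn45s, 2 per age, the aged minus young log2 difference of Bst1 was 0.80, and between the remaining 2, 1 per age, it was 1.08. Near its start Bst1 shares 99 exonic bases with Fbxl5 on the opposite strand, and 1.11% of its 75-base stretches occur in another gene's exons. Whether the counting used strand was not given in the sources used here, so reads in those 99 bases cannot be assigned with certainty. Fbxl5 was more abundant than Bst1 in every library, at 66.2–74.4 CPM in young and 74.2–91.9 CPM in aged ECs (log2 fold change 0.28, edgeR adjusted p = 0.471). The part of its reads in the Bst1 counts was not tested.

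CD157 is also carried by myeloid cells and their precursors, and markers of leukocytes were, like Bst1, highest at 136 weeks. The summed level of the 12 pan-leukocyte genes was 117 to 119 CPM in young libraries and 136, 113 and 392 CPM at 127, 131 and 136 weeks, with 11 of the 12 at a log2 fold change above 0. Without Lcp1, the most abundant, the sums were 39.6, 31.9 and 36.0 CPM in young 1, 2 and 3 and 76.3, 29.4 and 236 CPM in the aged libraries. The 127-week sum was then also above all young ones, whereas Bst1 at 127 weeks was nearly level with young 1. The 9 neutrophil genes summed to 3.97–10.6 CPM in young libraries and 7.82–55.7 CPM in the aged ones, highest at 136 weeks. All 9 had a log2 fold change above 0 and none was at 0 counts throughout. Mmp8, Ngp, Camp and Retnlg reached the 0.5 CPM needed for testing at 136 weeks alone, so their sign followed from that filter. Without the 136-week library 5 of the neutrophil genes were tested, 4 above 0 and 1 below. With a term for the mean of the pan-leukocyte list in the model, the log2 fold change of Bst1 was 0.30 with a standard error of 0.46. The 11 genes of T and NK cells behaved alike, with 9.12–10.0 CPM in young libraries and 21.8, 10.9 and 58.4 CPM in the aged ones. The 11 stellate and mural cell genes summed to 428, 356 and 135 CPM in young 1, 2 and 3 and to 456, 231 and 709 CPM in the aged libraries, lowest and highest in the same libraries as Bst1. Without Reln, the most abundant, the sums were 273, 175 and 64.8 CPM and 105, 122 and 213 CPM, and young 1 was the highest. Of these 11 genes, 6 had a log2 fold change above 0 and 5 below, with Lrat at 4.51–23.6 CPM in young and 1.67–4.18 CPM in aged libraries. The 20 large-vessel and portal EC genes also summed lowest in young 3, at 6983 CPM, and highest at 136 weeks, at 10316 CPM. Their 127-week sum of 8360 CPM was below the 9092 and 9174 CPM of young 1 and 2, unlike Bst1. The part of RNA from other cell types or from large-vessel ECs in the Bst1 counts was not tested.

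Bst1 and Cd38 are neighbours, with 25.5 kb between the end of Bst1 and the start of Cd38. Cd38 lies on the same strand of chromosome 5, from 44260048 to 44303614, with 8 exon blocks. The 250 bases before its annotated start are shown because these adjacent paralogs had differences of opposite sign, neither past the test. The window is taken from the RefSeq promoter table (build GRCm38.p6) and was found once in mm9, at chr5:44259798-44260047 on the plus strand. It is printed 5′ to 3′, with capitals reserved for matches to the searched motifs.
Cd38: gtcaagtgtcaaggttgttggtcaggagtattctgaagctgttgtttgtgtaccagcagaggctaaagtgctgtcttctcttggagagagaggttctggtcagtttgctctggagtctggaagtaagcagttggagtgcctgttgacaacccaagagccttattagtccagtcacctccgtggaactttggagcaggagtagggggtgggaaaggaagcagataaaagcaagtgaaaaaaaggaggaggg
Its GC content was 48.8%, against a median of 52.4% over all promoter windows of that length. On either strand it held none of the 5 motifs searched, namely the NF-kB motif (GGG, 5 bases of any kind, then CC, present in 45.8% of 32851 windows), the GAS motif TTCNNNGAA (7.02%), the ISRE-like motif (GAAA, 2 bases of any kind, then GAAA, 2.98%), the GC box GGGCGG (32.7%) and the TATA box TATAAA (12.4%). Such matches only describe the letters of the window.

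Cd38 was measured with the most counts of the members. Its CPM was 1579, 1402 and 1049.7 in young 1, 2 and 3, and 753, 1299.9 and 559 at 127, 131 and 136 weeks. The 127-week and 136-week libraries were below all young ones, while 131 weeks lay between young 3 and young 2, so the ages overlapped. The means were 1344 ± 269 and 870.5 ± 384 CPM (SD, n = 3 each). The log2 fold change was -0.63 with a standard error of 0.33 and did not pass the test (edgeR adjusted p = 0.497). It was -1.03 with a standard error of 0.25 without the 131-week library, -0.39 without the 136-week library and -0.26 with the pan-leukocyte term. Among the 4 libraries rich in Lars2 and Rn45s the log2 difference was -0.80, and between the other 2 it was -0.48.

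The sum of the sinusoidal EC genes was below the young level in all 3 aged libraries, also at 131 weeks, where Cd38 lay among the young values. The 16 genes summed to 23459, 24709 and 24692 CPM in young ECs and to 9465, 16169 and 8463 CPM at 127, 131 and 136 weeks. Of the 16, 15 had a log2 fold change below 0, 13 of them at an unadjusted p below 0.05 (4.32% of all genes tested were lower at that level). None was called by edgeR, which called 0 genes in all, while DESeq2 called 6 as lower (0.565% of the genes it tested). The median log2 fold change of the 16 genes was -0.99, against 0.0098 over all genes tested. Relative to the sum of the 16 genes, the CPM of Cd38 was 6.73%, 5.68% and 4.25% in young and 7.95%, 8.04% and 6.60% in aged libraries, which overlapped. Relative to each of the 16 genes in turn, Cd38 was higher in every aged library for 6 of them, such as Stab2, lower in every aged library for 1, Gata4, and overlapped for 9, such as Stab1. These ratios were chosen after the values were seen.

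Among the 6 nearest annotated genes of the count table that do not overlap Bst1, the differences had both signs. C1qtnf7, 200.1 kb before Bst1, was at 16.1–18.2 CPM in young and 7.51–11.4 CPM in aged ECs, with no overlap and a log2 fold change of -0.78 (edgeR adjusted p = 0.256). Prom1, which encodes the stem cell marker CD133 and lies on the opposite strand 150.4 kb beyond Bst1, was at 4.24–8.26 CPM and 8.75–13.2 CPM, again with no overlap (log2 fold change 0.70, adjusted p = 0.413). Cpeb2 (0.30) and Cc2d2a (0.35) overlapped between the ages, and Fgfbp1 was too low to be tested.

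**Figure D2:**
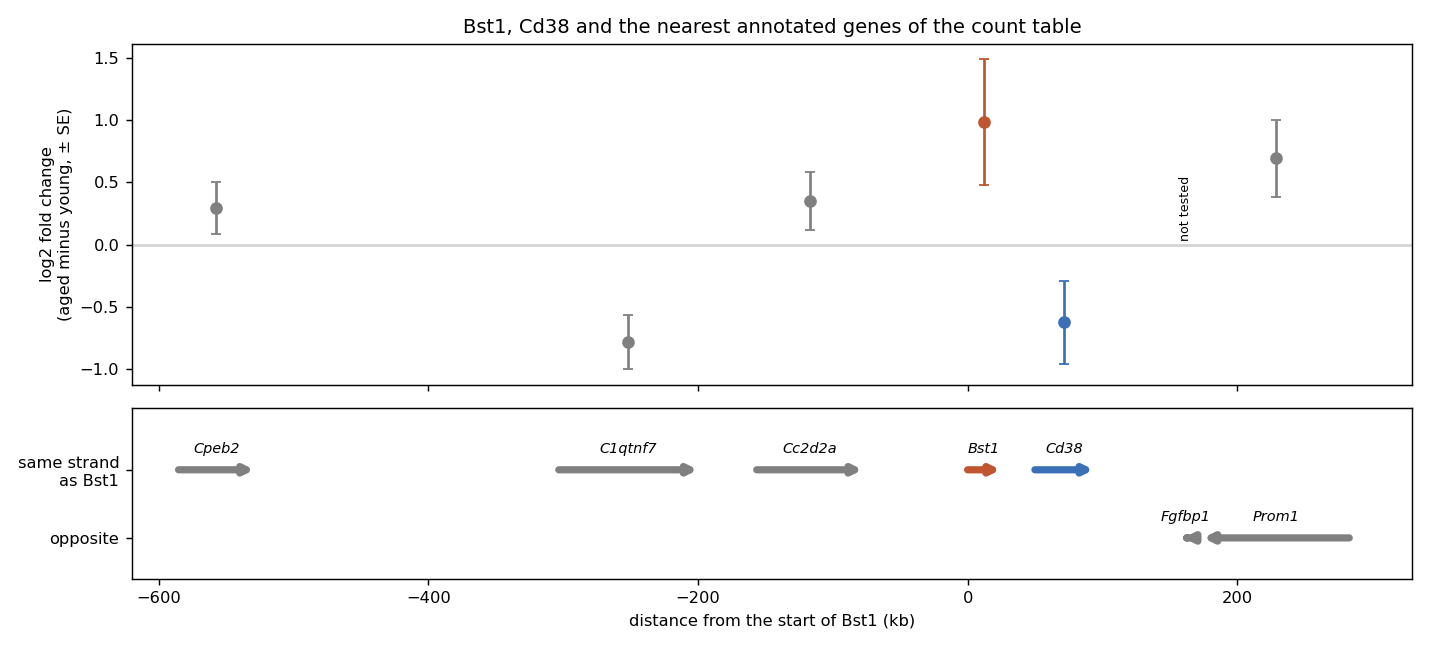
Upper panel, log2 fold change (aged minus young, edgeR, ± standard error) of Bst1, Cd38 and the other nearest genes of the count table that do not overlap Bst1, at the midpoint of each gene. Lower panel, gene spans by distance from the start of Bst1 in kb, with arrowheads in the direction of transcription. Bst1 at 0.99 and Cd38 at -0.63 lie on opposite sides of 0, and Fbxl5, which overlaps the start of Bst1 on the opposite strand, is not drawn.

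The relation of Bst1 to Cd38 within a library was compared by the ratio of their CPM. Bst1 was at 0.207%, 0.209% and 0.150% of Cd38 in young 1, 2 and 3, and at 0.443%, 0.257% and 1.56% at 127, 131 and 136 weeks. Every aged library was above every young one, and the geometric mean was 3.01-fold higher in aged ECs, or 1.81-fold higher without the 136-week library. The log2 difference of 1.59 gave p = 0.1 in a two-sided exact permutation test (n = 3 each, adjusted p = 0.2 over 2 ratios), and 0.1 is the smallest p that 3 libraries against 3 can give. Bst1 relative to Cd200 was 2.27%, 2.22% and 1.22% in young and 1.31%, 1.56% and 2.46% in aged libraries, which overlapped (log2 difference -0.099, exact permutation p = 1).

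**Figure D3:**
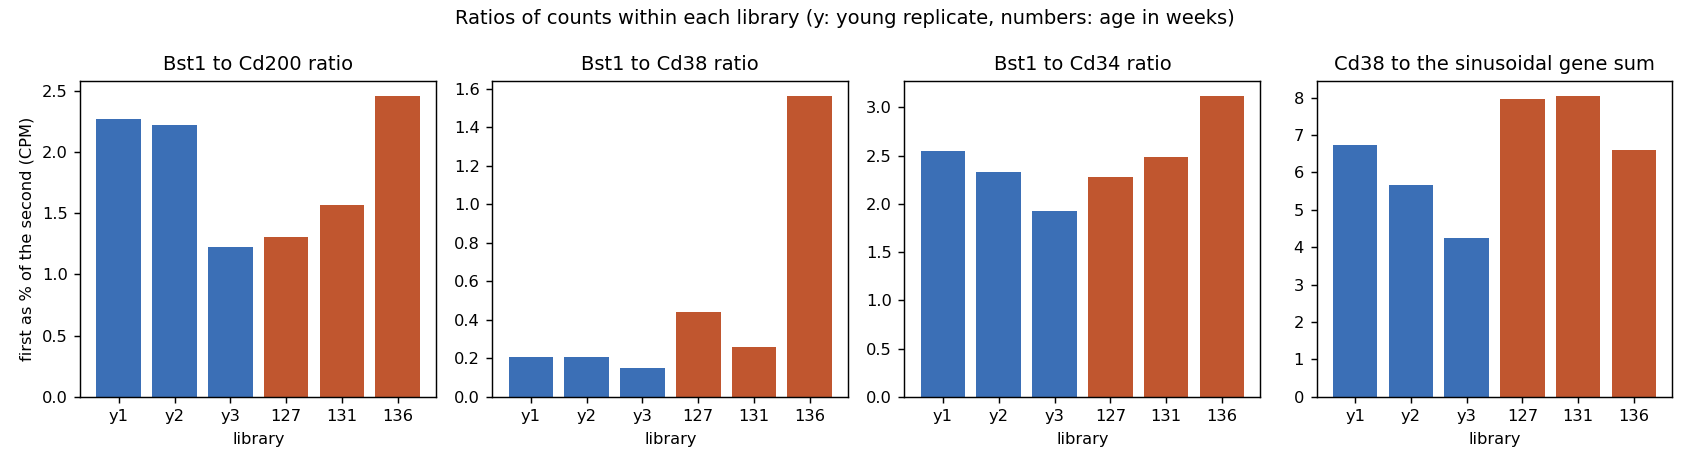
CPM of 1 gene as a percentage of that of another gene or of a list's sum (y axes, from 0) in each library, with blue bars for young replicates and orange bars for aged mice by age in weeks. Bst1 relative to Cd38 is higher in all 3 aged libraries, at 0.257% to 1.56% against 0.150% to 0.209%, whereas Bst1 relative to Cd200 or Cd34, and Cd38 relative to the sum of 16 sinusoidal EC genes, overlap between the ages.

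Other genes of NAD+ metabolism differed in both directions. Of 27 further genes of NAD+ ectoenzymes, NAD+ synthesis and use, and calcium channels gated by the products, 23 were tested, 13 had a log2 fold change above 0 and 10 below, and the median was 0.050. None was called by edgeR, and 1 gene in each direction had an unadjusted p below 0.05. Art3, which encodes a surface ADP-ribosyltransferase-like protein, was at 70.4, 60.0 and 74.3 CPM in young and 34.8, 42.9 and 44.6 CPM in aged libraries. All aged libraries were below all young ones for Art3, as for 8.33% of all genes tested (log2 fold change -0.74, standard error 0.16, edgeR adjusted p = 0.209). Nampt, the rate-limiting enzyme of NAD+ salvage, was at 91.6 ± 11.8 and 121 ± 18.1 CPM as mean and SD of 3 libraries each, with a log2 fold change of 0.41 (adjusted p = 0.386). Enpp1, a surface pyrophosphatase, averaged 0.648 and 2.16 CPM (adjusted p = 0.428), and Nmnat3, an NAD+ synthesis enzyme, 1.30 and 2.91 CPM (adjusted p = 0.447).

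Cd200 lies on the minus strand of mm9 chromosome 16, from 45382248 to 45409166, in 7 exon blocks, and none of its 75-base stretches occurs in another gene's exons. The 250 bases before its start are shown as Cd200 was the member that DESeq2 called. RefSeq's window (GRCm38.p6) was found once in mm9, at chr16:45409167-45409416, and is printed 5′ to 3′ on the minus strand with the GC box in capitals.
Cd200: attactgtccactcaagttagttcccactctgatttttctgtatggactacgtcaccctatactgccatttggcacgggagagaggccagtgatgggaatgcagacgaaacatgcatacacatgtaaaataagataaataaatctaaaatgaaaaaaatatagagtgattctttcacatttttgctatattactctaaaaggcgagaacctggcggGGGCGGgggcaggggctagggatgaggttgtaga
The GC content was 42.4%. The window held 1 GC box, starting 34 bases before the gene's start, and none of the other 4 motifs listed for Cd38.

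Cd200 was at 144, 132 and 129 CPM in young 1, 2 and 3 and at 255, 214 and 356 CPM at 127, 131 and 136 weeks. The young libraries lay within a narrow range and every aged one was above them, with 136 weeks highest. The means were 135 ± 7.998 and 275 ± 72.8 CPM (SD, n = 3 each). The log2 fold change was 1.03 with a standard error of 0.21, and Cd200 ranked 107th of 14612 genes by p, although it did not pass edgeR's test (adjusted p = 0.194). DESeq2 gave 1.02 and called it (adjusted p = 0.00164), and over the other alternatives the edgeR and limma adjusted p ran from 0.0687 to 0.625.

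The size of the Cd200 difference varied less than that of the other members. Without each library in turn it was 0.80 to 1.18, the lowest without the 136-week library. It was 1.00 among the 4 libraries rich in Lars2 and Rn45s and 0.98 between the other 2. With the pan-leukocyte term it was 0.70 with a standard error of 0.15. Relative to Pecam1, Cd200 was 8.12% to 10.5% in young and 15.6% to 21.7% in aged libraries.

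Genes of large-vessel ECs had more positive than negative differences. Of 20 large-vessel and portal EC genes, 16 had a log2 fold change above 0 and 4 below. An unadjusted p below 0.05 was found for 6, all of them higher in aged ECs (8.32% of all genes tested), and none was called by edgeR. DESeq2 called 1, Hey1, as higher (2.83% of the genes it tested). The median of the 20 genes was 0.36. Their summed level was 9092, 9174 and 6983 CPM in young ECs and 8360, 9520 and 10316 CPM at 127, 131 and 136 weeks, which overlapped. Of the lists for other cell types, the sums for cholangiocytes, mesothelial cells, and T and NK cells were higher in every aged library than in every young one, as Cd200 was. The 8 cholangiocyte genes, all with a log2 fold change above 0, summed to 96.4–120 CPM in young and 201–257 CPM in aged libraries, but without Spp1, the most abundant of them, the other 7 overlapped at 15.3–39.8 and 31.1–51.3 CPM. The 8 mesothelial genes summed to 215–342 and 396–608 CPM, most of it from Gpm6a. Of the 7 tested, Gpm6a and the keratin genes Krt8 and Krt18 had a log2 fold change above 0, while Msln (-2.001), Upk3b (-2.30), Upk1b (-2.08) and Lrrn4 (-1.63) were below 0, and the list's median was -1.63. The T and NK cell sum, given for Bst1, overlapped without Lck, since the 131-week library was then at 2.1 CPM, within the 0.789–3.42 CPM of the young ones. The part of other EC types or other cells in the Cd200 values was not tested.

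Around Cd200, no nearby gene was called by edgeR, as was 0% of all genes tested. Slc35a5 (log2 fold change -0.32) and Atg3 (0.063) overlapped between the ages. Btla (2.61, standard error 1.82) and BC016579 (2.85, standard error 1.39) also overlapped and were low, at most at 2.23 and 0.894 CPM. BC016579 reached 0.5 CPM at 131 weeks alone, so its sign followed from the filter on low counts. Gm609 and Tmprss7 were too low to be tested.

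Cd200r1, the receptor gene, lies 587 kb from Cd200 on the plus strand of chromosome 16, from 44765849 to 44795091. It was at 5.17, 7.13 and 8.86 CPM in young 1, 2 and 3 and at 4.61, 9.57 and 3.41 CPM at 127, 131 and 136 weeks. The 131-week library was the highest of all and the other aged libraries were the lowest. The log2 fold change was -0.27 with a standard error of 0.42 (edgeR adjusted p = 0.860), and it was 0.0060 without the 136-week library and 0.19 with the pan-leukocyte term. Of its 75-base stretches, 0.41% also occur in Cd200r4.

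CD200R1 is known best from myeloid cells, whose markers were ordered differently over the libraries. The 13 macrophage and Kupffer cell genes summed to 129, 130 and 142 CPM in young libraries and to 244, 41.1 and 567 CPM at 127, 131 and 136 weeks. The 131-week library, highest for Cd200r1, was thus the lowest for these genes, and the 136-week library, lowest for Cd200r1, was the highest. Of the 13, 9 had a log2 fold change above 0, and none was at 0 counts throughout.

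The other receptors of the family were near the limit of detection. Cd200r2 had 0 counts in 5 libraries and 14 counts, or 0.568 CPM, at 136 weeks. Cd200r3 reached at most 11 counts and Cd200r4 at most 7, and neither was tested. A count of 0 allows up to 3 counts, or 0.0946 to 0.135 CPM, for counting error only. Apart from Cd200 and Cd200r1, 6 genes of the CD200 receptors and their signalling were tested. Of these, 4 had a log2 fold change above 0 and 2 below, with a median of 0.11. Cd200r2, among the 4, was tested only through its 136-week counts, so its sign followed from the filter on low counts. Tyrobp, an adaptor of activating myeloid receptors, was at 3.52 ± 0.763 and 10.5 ± 10.8 CPM (SD, n = 3 each), with a log2 fold change of 1.57 (adjusted p = 0.476) that was -0.55 with the pan-leukocyte term. The phosphatase gene Inpp5d (-0.29, adjusted p = 0.537) and the adaptor gene Dok1 (-0.21, adjusted p = 0.836) had small differences, and that of Dok1 was 0.13 with the pan-leukocyte term.

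Abcg2 lies on the plus strand of chromosome 6, from 58534517 to 58642863, in 20 exon blocks. It was at 122, 127 and 277 CPM in young 1, 2 and 3 and at 213, 188 and 226 CPM at 127, 131 and 136 weeks. Young 3 was the highest of all 6 libraries and the other 2 young ones were the lowest, so the ages overlapped. The means were 175 ± 88.3 and 209 ± 19.0 CPM (SD, n = 3 each), with a log2 fold change of 0.25 and a standard error of 0.32 (edgeR adjusted p = 0.812).

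The value of Abcg2 rested on 1 young library. Without young 3 the log2 fold change was 0.75 with a standard error of 0.16 and an edgeR adjusted p of 0.325. Among the 4 libraries rich in Lars2 and Rn45s the difference was 0.73, and between young 3 and 127 weeks it was -0.38. The difference thus had opposite signs in the 2 clusters, the second with 1 library per age.

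Among 15 other genes of the ABCG family and drug efflux pumps, 11 were tested, 6 with a log2 fold change above 0 and 5 below, with a median of 0.077. None was called by edgeR. The P-glycoprotein gene Abcb1b was at 4.54, 5.05 and 5.87 CPM in young and 9.42, 14.4 and 11.2 CPM in aged libraries, and DESeq2 called it (log2 fold change 1.17, adjusted p = 0.00281), whereas edgeR gave 1.18 with an adjusted p of 0.209. Its paralog Abcb1a was at 12.2, 10.6 and 11.1 CPM in young and 16.0, 19.3 and 31.8 CPM in aged libraries (edgeR log2 fold change 0.98, adjusted p = 0.258). All aged libraries were above all young ones for both genes. As close paralogs they may share some reads, which was not measured, and how such reads were counted was not given in the sources used here. The organic anion pumps Abcc4 (149 ± 13.5 and 96.5 ± 21.3 CPM) and Abcc3 (28.7 ± 4.82 and 18.3 ± 3.83 CPM) were lower in aged ECs (SD, n = 3 each), with log2 fold changes of -0.63 (edgeR adjusted p = 0.277) and -0.65 (adjusted p = 0.325).

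Markers proposed elsewhere for endothelial stem or progenitor cells differed in both directions. All 12 genes of this list were tested, 9 had a log2 fold change above 0 and 3 below, and the median was 0.70, or 0.32 without the 136-week library and 0.28 with the pan-leukocyte term. None was called by edgeR, while DESeq2 called 3 as higher and 1 as lower (2.83% and 0.565% of the genes it tested). Procr, which encodes the endothelial protein C receptor, was at 19.1, 21.2 and 18.0 CPM in young and 47.0, 28.5 and 69.5 CPM in aged libraries, without overlap (edgeR log2 fold change 1.32, adjusted p = 0.235, DESeq2 adjusted p = 0.00696). Kit, the stem cell factor receptor gene, was lower in aged ECs at 298, 315 and 124 CPM against 449.6, 568 and 646 CPM (edgeR log2 fold change -1.17, adjusted p = 0.282, DESeq2 adjusted p = 0.0262). The transcription factor genes Sox9 (edgeR log2 fold change 1.66, adjusted p = 0.254) and Atf3 (1.33, adjusted p = 0.288) were the other 2 that DESeq2 called, both higher in aged ECs. Bst1 and Kit, both proposed as markers of such cells, thus had differences of opposite sign, neither past edgeR's test. Kit was also listed among pericentral EC genes and Sox9 among cholangiocyte genes, so these values do not speak of stem or progenitor cells alone.

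The genes whose level followed each member most closely over the 6 libraries were found from the root mean square (RMS) difference between profiles of log2(CPM + 1), each centred on its own mean. For Bst1, Cd34, a sialomucin gene of large-vessel ECs and progenitors, was nearest of 10224 genes with a mean of at least 5 CPM (RMS difference 0.0739), followed by Fbln5 (0.1002), Acvrl1 (0.102), Gpx3 (0.115) and Tmem38b (0.117). The SD of the Bst1 profile itself was 0.568 on that scale. The 1 CPM added before the log narrowed the profile of Bst1, at 1.58 to 8.73 CPM, more than that of Cd34. The order of these genes therefore depends on the scale, and Bst1 itself varied 5.54-fold over the 6 libraries. Cd34 was at 128, 126 and 81.7 CPM in young and at 146, 134 and 280.0 CPM in aged libraries, and Bst1 was 1.93% to 2.55% of it in young and 2.28% to 3.12% in aged ECs. The ranges of that ratio overlapped, and both genes were lowest in young 3 and highest at 136 weeks.

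For Cd200, Jag1, which encodes a Notch ligand, was nearest of 10223 genes (RMS difference 0.108), followed by Ptprj (0.111), Lrig1 (0.117), Hip1r (0.119) and Sox4 (0.125). Jag1 was at 88.6–120 CPM in young and 167–247 CPM in aged libraries, and all 5 of these genes had every aged library above every young one, as Cd200 had. Cd200 was 121% to 146% of Jag1 in young and 121% to 144% in aged libraries. The 5 genes were picked for likeness to Cd200 in these same libraries, so their separation and this ratio follow from the choice. Of all genes tested, 9.62% had every aged library above every young one. None of the 5 genes nearest to Bst1 was among those nearest to Cd200.

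The same measure was added for the other members after the data were seen. Cd38 was nearest to S100a1 (0.0617), which was at 150.0, 136 and 109 CPM in young and 69.6, 135 and 53.1 CPM in aged libraries, with the 131-week library again at the young level. The other 4 were Mb21d2, Cmtm8, Msantd4 and Inpp5b. Abcg2 was nearest to Ppp1r15a (0.126), a gene of the integrated stress response that was at 844, 979 and 1975 CPM in young and 1557, 1708 and 1707 CPM in aged libraries, so that young 3 was high for both. Cd200r1 was nearest to Accs (0.148). With 6 libraries and so many candidates, near profiles are a description of these libraries, and their likeness to a member follows from how they were picked.

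**Figure D4:**
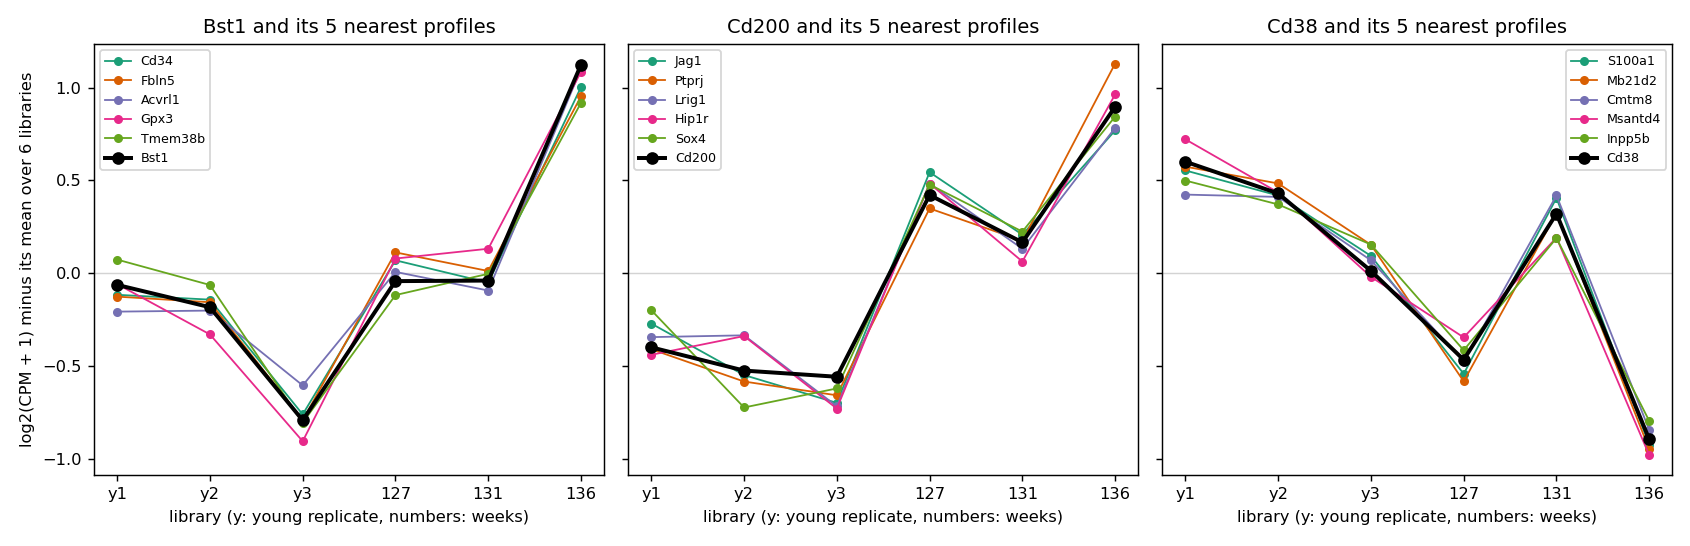
log2(CPM + 1) minus its mean over the 6 libraries (y axis) for Bst1, Cd200 and Cd38 (black) and the 5 genes of smallest RMS difference from each (colours), in young replicates and in aged mice by weeks (x axis), with lines linking the points of a gene only. Bst1 is lowest in young 3 and highest at 136 weeks, Cd200 separates the ages, and Cd38 at 131 weeks lies among the young values.

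Across the settings tried, Cd200 kept a positive difference and Cd38 a negative one in 16 of 16 alternatives each, as did Bst1 and Abcg2 (positive), while Cd200r1 kept its sign in 14 of 16. The value of Bst1 ranged from 0.30 to 1.22, that of Cd200 from 0.70 to 1.18, that of Cd38 from -1.03 to -0.26 and that of Abcg2 from 0.051 to 0.75. Of the 5 members, Cd200 alone had an adjusted p below 0.05 in any of them, with DESeq2.

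**Figure D5:**
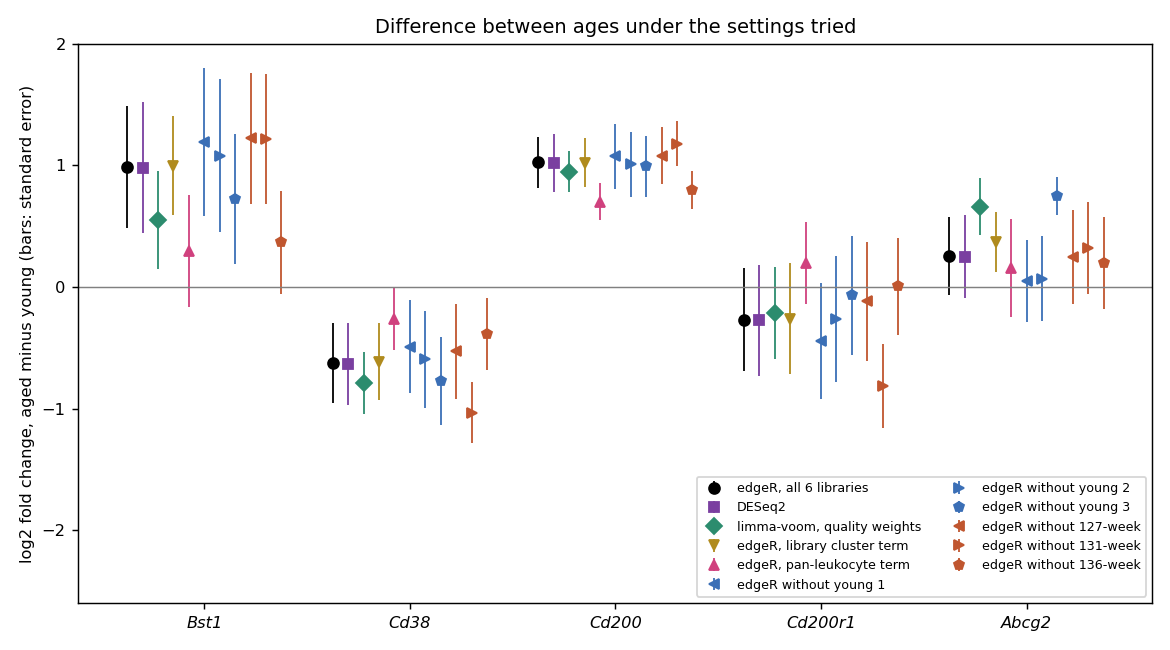
log2 fold change (aged minus young, y axis) of each gene with its standard error under the model with all 6 libraries, 4 other models and the removal of each library in turn. Cd200 stays between 0.70 and 1.18, whereas Bst1 is at 0.37 without the 136-week library, Abcg2 is at 0.75 without young 3 and Cd200r1 lies on both sides of 0.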

How the data were processed

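RNA of sorted liver ECs of 3 young and 3 aged samples was sequenced by the authors as 75-base single-end reads. Per the submitters' processing notes, CASAVA 1.8.2, TopHat2 2.1.0 and Cuffnorm 2.2.1 were used with mm9. The deposited counts are whole numbers per gene symbol, not normalized, and the deposited FPKM were scaled between samples by the authors. The counting program, its annotation and its use of strand are not given in the sources used here, so overlapping genes and paralogs are uncertain. The reads carry no molecular identifiers and may repeat a molecule, so intervals and the floor of 3 counts cover counting error only.

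Genes reaching 0.5 CPM in 1 or more samples were kept, scaled by TMM and tested with the quasi-likelihood test of edgeR 4.0.16 (R 4.3.3), with Benjamini-Hochberg adjustment over all of them. FPKM served for levels between genes and, as log2(FPKM + 1) or log2(FPKM + 0.1), for limma 3.58.1. DESeq2 1.42.0, limma-voom with sample quality weights, other scalings and filters, terms for the library cluster or the mean of the pan-leukocyte markers, and the removal of each library were alternatives. A CPM per member is its count divided by the TMM-scaled total. Ratios were compared by two-sided exact permutation tests. The edgeR and DESeq2 tests were also run on simulated data, and the other tests were not.

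The members, the gene lists and the library clusters were chosen with earlier results of these data known. Named genes were the members, up to 4 genes of smallest p in each list, the 5 nearest profiles and the 3 nearest annotated genes on each side of Bst1 and Cd200. Positions come from the GENCODE annotation of mm9, and RefSeq promoter windows were matched for 3 of the 5 members. Whether each library came from 1 mouse is not given in the sources used here, so p-values measure the spread between libraries. The libraries of a group differed by more than counting error (chi-square per degree of freedom of at least 20.2). Gene symbols that a spreadsheet had turned into dates were kept as they stood.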

Additional observations from a re-analysis of the deposited data

How the results depend on the processing

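With edgeR on all 6 libraries, 0 genes passed an adjusted p of 0.05 with a log2 fold change beyond 1. The number was 474 with DESeq2, 16 with the pan-leukocyte term, 15 with limma-voom and sample quality weights, 4 without a filter on low counts, 2 with limma on log2(FPKM + 0.1), 2 with the library-cluster term, and 0 to 1 when a library was left out, the 1 without the 131-week library. For Cd200, DESeq2 gave 1.02 and passed the test. Cd200r1 turned positive with the pan-leukocyte term (0.19) and without the 136-week library (0.0060), where its range over left-out libraries was -0.81 to 0.0060. With the pan-leukocyte term Tyrobp (-0.55) and Dok1 (0.13) also changed sign. Cd200r2, with counts at 136 weeks alone, could not be estimated with that term (-1.92 with a standard error of 6466), so its sign there has no meaning. The log2 difference of Bst1 relative to Cd200 was 0.096 within the cluster with few Lars2 and Rn45s counts, and 0.055 without young 1, 0.039 without young 2 and 0.096 without the 127-week library, in a range of -0.39 to 0.096 over left-out libraries. The cause was not tested. No paired analysis was made because the labels give no pairing of young with aged libraries. With 50 to 215 counts per library, Bst1 was the member most limited by depth.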
